A study of Mus musculus with 35 samples.

Results

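Transcripts of 10 genes for H3K9 methylation and for the human silencing hub (HUSH) were followed in single mouse zygotes and early 2-cell (2C) embryos. The genes were chosen by name from the gene count table, which held 24479 genes once the row of Kdm5b was removed, and all 10 were found: Ehmt1, Ehmt2, Suv39h1, Suv39h2, Setdb1, Atf7ip, Trim28, Mphosph8, Pphln1 and Cbx5. All 35 samples were wild-type C57BL/6NRj embryos, and no group carried a deletion or a transgene. Late S or G2 phase zygotes were collected 17 h after ovulation, and 2C embryos in late S phase 5.5 to 8 h after division. Embryos had been injected with mRNA for KDM5B, an H3K4 demethylase, fused to YFP (Kdm5b groups) or with nuclease-free water (control groups). There were 10 control zygotes, 10 Kdm5b zygotes, 9 control 2C and 6 Kdm5b 2C samples. Zygotes were single embryos, while 3 control 2C samples and 1 Kdm5b 2C sample were pools of blastomeres from several embryos. No sample was injected with YFP mRNA alone, so injection of mRNA and the action of KDM5B cannot be told apart in these groups.

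Methylation of lysine 9 on histone H3 marks silent chromatin. SUV39H1 and SUV39H2 write the trimethyl mark at pericentromeric repeats, whereas EHMT1 (GLP) and EHMT2 (G9a) act together to write the mono- and dimethyl marks in euchromatin. SETDB1 writes the trimethyl mark at endogenous retroviruses, to which it is brought by TRIM28 (KAP1), the corepressor of KRAB zinc finger proteins. ATF7IP keeps SETDB1 stable in the nucleus. MPHOSPH8 (MPP8), a chromodomain reader of methylated H3K9, and PPHLN1 (periphilin) are subunits of HUSH, which works with SETDB1 and MORC2 to silence LINE-1 elements and integrated retroviruses. CBX5 (HP1 alpha) binds the trimethyl mark and compacts heterochromatin. Around fertilisation the embryo relies on transcripts stored in the oocyte, which are cleared as its own genome becomes active during the 2C stage.

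The promoters of Suv39h1 and Suv39h2 are shown because these enzymes have the same activity while their transcripts differed widely in level, and that of Mphosph8 because its estimate was the lowest of the 10 between stages. Each is the RefSeq window of GRCm38.p6 from 250 bases before to 50 bases after the start site, in the direction of the gene. For Suv39h1, 2 start sites are listed and the outermost was used. Capitals mark GC boxes (GGGCGG or CCGCCC) and CCAAT boxes (CCAAT or ATTGG).
Suv39h1, chrX:8074711-8075010, minus strand: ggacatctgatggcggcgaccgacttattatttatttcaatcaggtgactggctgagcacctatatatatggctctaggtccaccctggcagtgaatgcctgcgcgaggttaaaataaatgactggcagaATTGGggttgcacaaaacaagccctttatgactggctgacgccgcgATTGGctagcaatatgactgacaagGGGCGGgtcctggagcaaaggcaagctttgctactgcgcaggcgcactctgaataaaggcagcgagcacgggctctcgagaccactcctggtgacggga
Suv39h2, chr2:3474937-3475236, minus strand: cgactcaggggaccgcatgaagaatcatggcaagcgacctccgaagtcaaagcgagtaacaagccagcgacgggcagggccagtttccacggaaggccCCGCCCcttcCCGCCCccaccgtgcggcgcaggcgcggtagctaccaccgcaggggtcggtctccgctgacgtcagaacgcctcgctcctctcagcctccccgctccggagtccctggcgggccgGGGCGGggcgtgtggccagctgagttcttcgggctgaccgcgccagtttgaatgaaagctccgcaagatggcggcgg
Mphosph8, chr14:56667998-56668297, plus strand: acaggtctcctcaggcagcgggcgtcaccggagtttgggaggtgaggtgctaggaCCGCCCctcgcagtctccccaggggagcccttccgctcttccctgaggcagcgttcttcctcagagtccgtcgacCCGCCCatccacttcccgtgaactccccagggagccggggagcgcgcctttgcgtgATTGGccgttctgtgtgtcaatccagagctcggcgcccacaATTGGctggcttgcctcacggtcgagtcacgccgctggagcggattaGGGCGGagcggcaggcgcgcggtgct
The Suv39h1 window held 1 GC box, 2 CCAAT boxes and 15 CpG dinucleotides, that of Suv39h2 held 3 GC boxes, 0 CCAAT boxes and 33 CpG dinucleotides, and that of Mphosph8 held 3, 2 and 28. The median over all 32851 such windows was 7 CpG dinucleotides. GC boxes were present in 35.7% and CCAAT boxes in 37.4% of the windows, counting both strands. The letters of these motifs can overlap, but no bases were shared in the windows of the 10 genes. A TATA box (TATAAA or TTTATA), present in 13.6% of all windows, was found in none of the 10 promoters. These letter matches describe the windows and do not show that a factor binds there.

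Between 8705584 and 17797581 fragments were counted per sample. Kdm5b took at least 2.30% of the fragments in each injected sample and at most 0.0189% in each control. All 7 oocyte and zygote markers were above 1 TPM (a gene's share of all transcripts of a sample, corrected for gene length and scaled to a fixed total) by median in every group. The summed level of 7 markers of the 2-cell embryo was 27.0 to 120.1 TPM in control zygotes and 279.6 to 1072 TPM in control 2C samples. The summed level of 12 cumulus and granulosa cell markers, a check for attached follicle cells, stayed at or below 24.7 TPM in every sample, and 7 of the 12 had a median of 0 in control zygotes.

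The 10 transcripts ranged from abundant to barely detected. In control zygotes Mphosph8 led at 500.8 TPM ± 58.5 (SD, n = 10), followed by Atf7ip at 411.0 ± 41.6, Setdb1 at 272.3 ± 16.7 and Suv39h2 at 141.4 ± 11.0 TPM. The ranges of Mphosph8 and Atf7ip overlapped, while Atf7ip, Setdb1 and Suv39h2 did not overlap the next gene in this order. Trim28 at 86.7 ± 15.4, Pphln1 at 75.9 ± 10.0, Ehmt1 at 53.6 ± 7.44 and Cbx5 at 33.4 ± 5.15 TPM followed, each overlapping its neighbour. Ehmt2 at 0.954 ± 0.678 and Suv39h1 at 0.739 ± 0.652 TPM lay far below all others and overlapped each other. In control 2C samples Atf7ip led at 331.1 TPM ± 64.1 (SD, n = 9), above every value of Setdb1, and Mphosph8 (123.2 ± 66.9 TPM) lay beside Suv39h2 (123.4 ± 16.3 TPM). From Setdb1 downwards, each gene's range overlapped that of the next. The summed level of the 10 was 1577 TPM ± 66.4 in control zygotes and 918.5 ± 161 in control 2C samples.

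**Figure D1:**
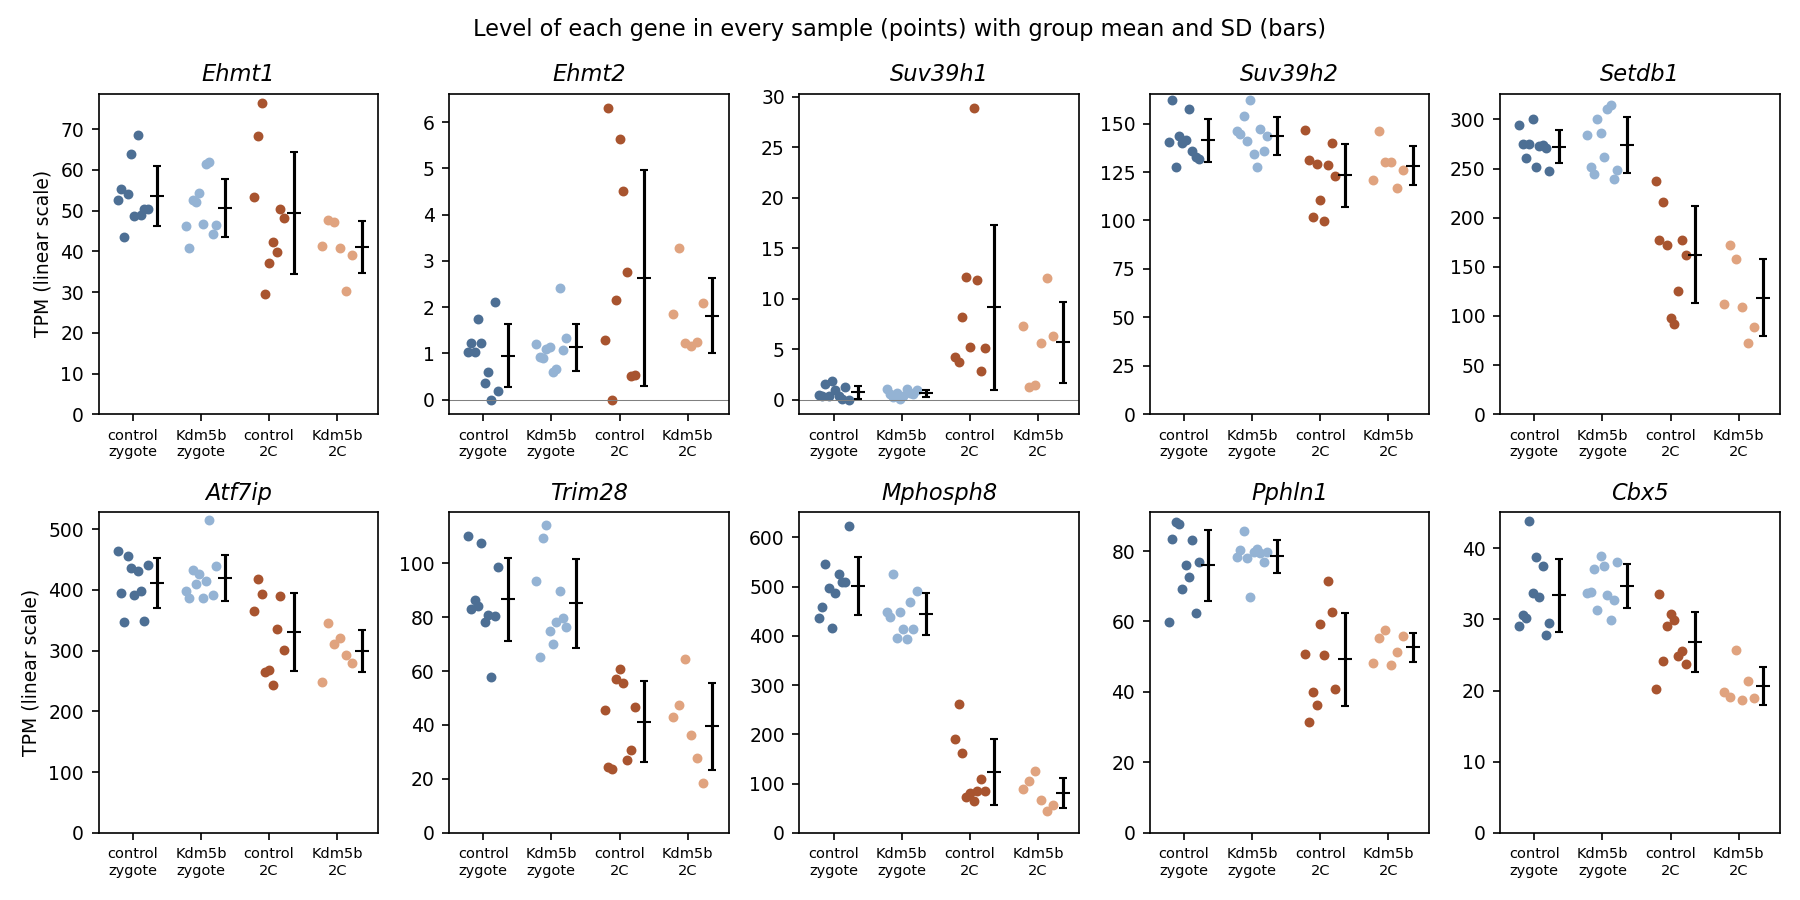
Level in TPM, on a linear scale, of each of the 10 genes in every sample (points) of the 4 groups, with the group mean and SD (bars). Suv39h1 was at most 1.87 TPM in all 20 zygotes and at least 2.87 TPM in all 9 control 2C samples. In the 6 Kdm5b 2C samples it had 1.26 to 12.1 TPM, the lowest within the range of the control zygotes. Mphosph8 was at least 393.6 TPM in all zygotes and at most 260.7 TPM in all 2C samples.

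To ask how these transcripts differ between zygote and 2C stage, control 2C samples were compared with control zygotes by the quasi-likelihood test of edgeR, with p-values adjusted over all genes tested. Of the 10 genes, 1 was higher in 2C (Suv39h1) and 4 were lower (Mphosph8, Trim28, Setdb1 and Pphln1) at an adjusted p under 0.05, and 5 did not pass. Calls were common at this transition: 52.2% of the 11968 genes tested passed, 26.8% higher and 25.4% lower, so a share of 5 in 10 is near the background. The Kdm5b embryos, which share no sample with the controls, gave 7 calls, 1 higher and 6 lower, beside 58.7% of 12390 genes tested (29.3% higher and 29.5% lower). All 5 control calls were among these 7, in the same direction, but the overlap of calls over all genes was not computed. The median log2 fold change of the 10 genes was -0.23 in control and -0.42 in Kdm5b embryos, beside 0.02 and 0.01 over all genes tested. Zygote and 2C libraries were prepared on different days and only the 2C embryos came from thawed zygotes, so stage, library day and cryopreservation cannot be told apart. Levels are relative to all gene transcripts of a sample, and a smaller share cannot be told apart from less RNA per embryo.

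**Figure D2:**
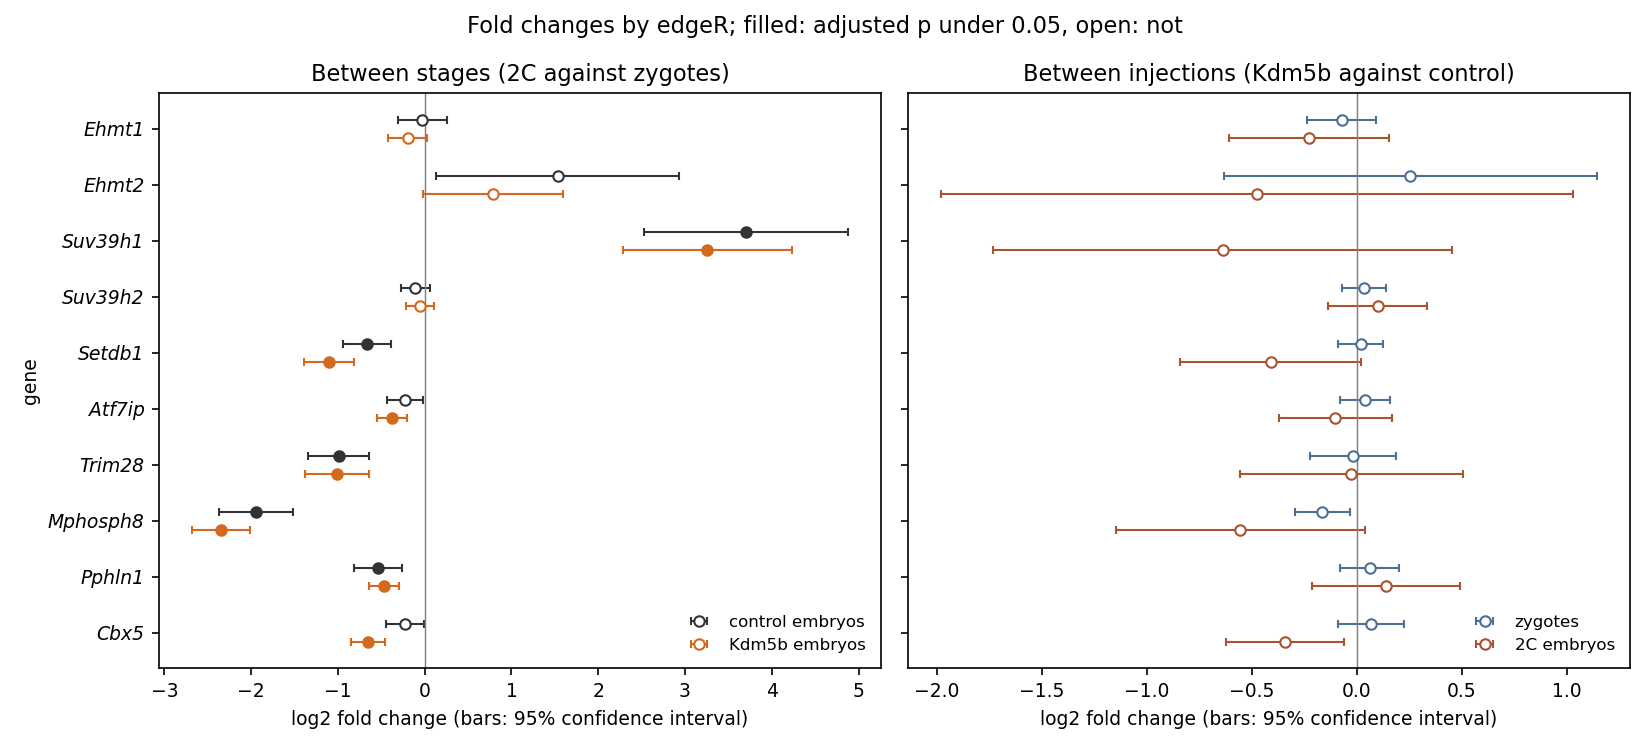
Log2 fold change of each gene with its 95% confidence interval between stages (left; black for control, orange for Kdm5b embryos) and between injections (right; blue for zygotes, brown for 2C embryos), with filled points for an adjusted p under 0.05. Between stages Suv39h1 lies to the right of 0 and Mphosph8, Trim28, Setdb1 and Pphln1 to the left in both kinds of embryo, and between injections every point is open.

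Of the paralogues that write the trimethyl mark at pericentromeric repeats, Suv39h1 was higher in 2C embryos and Suv39h2 did not pass the test. Suv39h1 had 0 to 1.87 TPM in control zygotes with a median of 0.431 TPM, and 2.87 to 28.9 TPM in control 2C samples with a median of 5.22 TPM. The groups did not overlap, with all 9 control 2C samples above the highest control zygote. The log2 fold change was 3.71 (SE 0.57, adjusted p = 5.34e-06). Kdm5b embryos gave 0.116 to 1.03 TPM with a median of 0.616 TPM in zygotes and 1.26 to 12.1 TPM with a median of 5.98 TPM in 2C samples, again without overlap (log2 fold change 3.26, SE 0.47, adjusted p = 2.19e-06). Suv39h1 did not pass the filter on low counts among zygotes alone, so its counts in 2C samples brought it into these stage tests. Without this filter the same test still called it higher in 2C samples (adjusted p = 2.74e-06 in control and 1.06e-06 in Kdm5b embryos). The zygote values rest on few fragments, 0 to 31 per control zygote and 2 to 18 per Kdm5b zygote, against 36 to 292 per control 2C sample. The highest value belonged to control 2C replicate 6, which also had the highest summed level of cumulus and granulosa markers (24.7 TPM, led by Tnfaip6 at 10.9 TPM, with 5 of 12 markers at 0). The part of such cells in that value was not tested, and without this sample the log2 fold change was 3.27 (adjusted p = 2.18e-05).

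Suv39h2 was abundant at both stages. It had 127.6 to 162.4 TPM (median 140.3) in control zygotes and 99.8 to 146.6 TPM (median 128.6) in control 2C samples, and the groups overlapped. Its log2 fold change was -0.11 (95% confidence interval -0.28 to 0.06, adjusted p = 0.290) in control and -0.06 (-0.22 to 0.10, adjusted p = 0.555) in Kdm5b embryos. Suv39h1 therefore made up 0.530% ± 0.485 of the summed TPM of the pair in control zygotes and 7.01% ± 6.31 in control 2C samples, and at most 22.4% in any sample.

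The partners EHMT1 and EHMT2 were also unequal at the RNA level. Ehmt1 had 43.6 to 68.5 TPM (median 51.6) in control zygotes and 29.6 to 76.4 TPM (median 48.3) in control 2C samples, with overlapping groups and a log2 fold change of -0.03 (95% confidence interval -0.31 to 0.26, adjusted p = 0.892). Ehmt2 had 0 to 2.12 TPM (median 1.03) in control zygotes and 0 to 6.30 TPM (median 2.16) in control 2C samples. For Ehmt2, 5 of 9 control 2C samples exceeded the highest control zygote, and the log2 fold change of 1.53 (SE 0.68) did not pass (adjusted p = 0.0612). It was 0.79 (SE 0.39, adjusted p = 0.0852) in Kdm5b embryos. No fragment of Ehmt2 was counted in control zygote replicate 8 and in control 2C replicate 3, where 3 fragments, the limit that a count of 0 allows, would be 0.219 and 0.256 CPM (the share of all gene fragments, scaled to that total). Ehmt2 made up 1.74% ± 1.27 of the summed TPM of the pair in control zygotes and 5.45% ± 4.57 in control 2C samples.

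Within the SETDB1 arm, transcripts of the enzyme and of its recruiter TRIM28 fell in control and Kdm5b embryos. Setdb1 had 247.3 to 300.8 TPM (median 273.6) in control zygotes and 92.2 to 237.4 TPM (median 172.5) in control 2C samples. These groups did not overlap, nor did the 6 Kdm5b 2C samples, all at or below 172.5 TPM, overlap the Kdm5b zygotes, all at or above 239.4 TPM. The log2 fold change was -0.66 (SE 0.13, adjusted p = 0.000194) in control and -1.10 (SE 0.14, adjusted p = 2.31e-07) in Kdm5b embryos. Trim28 had 57.7 to 110.0 TPM (median 83.6) in control zygotes and 23.8 to 60.6 TPM (median 45.6) in control 2C samples, of which 8 of 9 lay below the lowest control zygote. Its log2 fold change was -0.99 (SE 0.17, adjusted p = 2.63e-05) in control and -1.01 (SE 0.18, adjusted p = 3.41e-05) in Kdm5b embryos. Atf7ip had 346.7 to 464.3 TPM (median 415.0) in control zygotes and 243.5 to 417.3 TPM (median 335.7) in control 2C samples, with 5 of 9 below the lowest control zygote. Its log2 fold change of -0.22 (SE 0.10) did not pass in control embryos (adjusted p = 0.0636), whereas Atf7ip fell by 0.38 on the log2 scale in Kdm5b embryos (SE 0.08, adjusted p = 0.000433), where the groups did not overlap.

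Mphosph8, which encodes the HUSH reader subunit, was lower by several-fold in 2C embryos. Its level was 415.9 to 622.5 TPM (median 503.3) in control zygotes and 64.4 to 260.7 TPM (median 85.7) in control 2C samples. In Kdm5b embryos it was 393.6 to 524.8 TPM (median 443.5) in zygotes and 44.7 to 125.1 TPM (median 78.2) in 2C samples. Neither pair of groups overlapped, and the log2 fold change was -1.94 (SE 0.21, adjusted p = 2.08e-08) in control and -2.35 (SE 0.16, adjusted p = 1.65e-11) in Kdm5b embryos. Mean TPM was 4.06-fold and 5.45-fold lower in 2C samples, respectively. Pphln1, the other HUSH subunit, had 59.7 to 88.3 TPM (median 76.4) in control zygotes and 31.6 to 71.4 TPM (median 50.4) in control 2C samples, with 7 of 9 below the lowest control zygote. It fell by 0.54 on the log2 scale in control (SE 0.13, adjusted p = 0.00154) and by 0.47 in Kdm5b embryos (SE 0.09, adjusted p = 4.90e-05).

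Cbx5, the reader of the trimethyl mark, had 27.8 to 43.8 TPM (median 31.9) in control zygotes and 20.2 to 33.5 TPM (median 25.5) in control 2C samples, and the groups overlapped. Its log2 fold change was -0.23 (SE 0.11, adjusted p = 0.0748) in control embryos and -0.65 (SE 0.09, adjusted p = 2.02e-06) in Kdm5b embryos, where it had 29.9 to 39.0 TPM in zygotes and 18.7 to 25.7 TPM in 2C samples without overlap.

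Of the 5 control calls, Suv39h1 and Mphosph8 were also past an absolute log2 fold change of 1, the second threshold of the study's own calls, as were 22.2% of all genes tested. The study itself reported far fewer genes past both thresholds between its control groups, and the reason was not tested. In Kdm5b embryos Suv39h1, Mphosph8, Setdb1 and Trim28 were past it, beside 26.5% of all genes tested. Each of the 5 control calls held in all 19 fits that left out 1 sample, and each of the 7 Kdm5b calls in all 16 such fits. In the single intact embryos alone, Mphosph8 had a log2 fold change of -1.80 (adjusted p = 3.18e-06) and Suv39h1 of 3.86 (adjusted p = 2.93e-05) between the control groups.

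The spread among samples was wider at the 2C stage, where 3 control samples and 1 Kdm5b sample were pools. Leaving aside the low transcripts Ehmt2 and Suv39h1, the coefficient of variation of the other 8 genes was 6.12% to 17.7% in control zygotes and 5.95% to 19.2% in Kdm5b zygotes. It was 13.2% to 54.3% in control 2C and 7.88% to 40.8% in Kdm5b 2C samples, highest for Mphosph8 and for Trim28, respectively. The stages differed little for Cbx5 in controls (15.4% and 15.7%) and for Suv39h2 in Kdm5b embryos (6.84% and 7.88%). Mphosph8 in control 2C samples also differed between strips of library indexes, described below (162.2 to 260.7 TPM in strip 11, 64.4 to 108.9 TPM in strip 12). The part of strips and pools in the spread was not tested.

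Other genes of the pathway, 40 in 5 lists, were examined in the same fits. Between the control groups 39 were tested, of which 16 were higher and 6 lower in 2C, and their median log2 fold change was 0.11. Between the Kdm5b groups 16 were higher and 8 lower of 39 (median 0.09). Both totals are near the shares over all genes tested, 52.2% (26.8% higher and 25.4% lower) and 58.7% (29.3% higher and 29.5% lower), against which the counts of each list below are also to be read. Of the 22 control calls, 18 were also made in Kdm5b embryos, all in the same direction. These 18 were 81.8% of the control and 75% of the Kdm5b calls. Because the overlap over all genes was not computed, these shares have no background to be read against. With library totals in place of TMM the split was 13 higher and 8 lower in control and 13 higher and 14 lower in Kdm5b embryos. No gene called after TMM scaling changed sign. Over all genes the split with library totals was 2748 higher and 3432 lower of 11968 in control embryos. It was 3062 higher and 4184 lower of 12390 in Kdm5b embryos. Counts with library totals below are to be read against these.

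Among HUSH and SETDB1 partners all calls after TMM scaling were higher in 2C embryos. In control embryos 4 of 6 were higher and 0 lower (3 and 0 with library totals), and the same 4 were higher in Kdm5b embryos (4 higher and 2 lower with library totals): Tasor2 and Tasor (listed as Fam208b and Fam208a), Resf1 (listed as 2810474O19Rik) and Morc2a. Tasor2 had 143.2 TPM ± 13.2 (SD, n = 10) in control zygotes and 258.6 ± 32.4 (SD, n = 9) in control 2C samples, without overlap (log2 fold change 0.94, SE 0.08, adjusted p = 6.05e-10), and 1.18 (SE 0.10) in Kdm5b embryos. Resf1, a partner of SETDB1 in retroviral silencing, rose from 234.4 TPM ± 18.4 to 326.6 ± 23.5 in control embryos (log2 fold change 0.57, SE 0.07, adjusted p = 1.13e-07). Morc2a had log2 fold changes of 0.91 and 0.91 in control and Kdm5b embryos, and Tasor, the scaffold of HUSH, of 0.47 (adjusted p = 0.0137) and 0.67 (adjusted p = 0.00136). Of the HUSH subunits, Mphosph8 and Pphln1 were lower in 2C embryos of both kinds, while Tasor was higher in both after TMM scaling and in control embryos lost its call with library totals.

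Among H3K9 demethylases, 4 of 10 tested were higher and 1 lower in control embryos, beside 52.2% of all genes called. Kdm3a, which removes mono- and dimethyl marks, had 6.11 TPM ± 1.94 in control zygotes and 21.1 ± 9.08 in control 2C samples (log2 fold change 1.88, SE 0.22, adjusted p = 9.94e-08), and a log2 fold change of 1.46 in Kdm5b embryos (SE 0.16). Kdm7a, Kdm4c and Kdm4b were the others that rose in controls, and Jmjd1c was lower. Neither Kdm4b (log2 fold change -0.12, adjusted p = 0.695) nor Jmjd1c (-0.28, adjusted p = 0.157) passed in Kdm5b embryos. Kdm4c was low in zygotes, with an average of 0.48 log2 CPM over both zygote groups. In Kdm5b embryos 4 were higher and 3 lower (3 and 4 with library totals), beside 58.7% of all genes called, and Kdm1a fell by 0.73 on the log2 scale (SE 0.15, adjusted p = 0.000203).

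Of 6 readers and protectors of the mark, Cbx3 (HP1 gamma) was higher and Uhrf1, which links H3K9 methylation to maintenance of DNA methylation, was lower in both kinds of embryo. Cbx3 was low in zygotes, with an average of 0.59 log2 CPM over both zygote groups, beside 7.56 for Cbx1. Uhrf1 had 885.5 TPM ± 89.9 in control zygotes and 510.5 ± 175 in control 2C samples (log2 fold change -0.71, SE 0.14, adjusted p = 0.000185) and a log2 fold change of -0.90 (SE 0.14) in Kdm5b embryos. Of 9 KRAB zinc finger and TRIM28 partners, 3 were higher and 2 lower in controls, and 4 were higher and 1 lower in Kdm5b embryos, shares near those over all genes (52.2% and 58.7%). Zfp57, which guards imprinted loci with TRIM28, fell by 0.50 on the log2 scale in controls (SE 0.13, adjusted p = 0.00263), from 3987 TPM ± 192 to 2659 ± 803. Its log2 fold change of -0.20 in Kdm5b embryos did not pass (SE 0.09, adjusted p = 0.0746). Trim24 fell by 0.37 in controls (SE 0.08, adjusted p = 0.000228) and by 0.45 in Kdm5b embryos (SE 0.09, adjusted p = 0.000227), and Zfp568 rose by 0.56 and by 0.83 on the log2 scale. Of 8 other H3K9 methyltransferases and G9a/GLP partners, 4 were higher and 2 lower in controls, and 3 were higher and 3 lower in Kdm5b embryos, beside the same shares. With library totals they were 2 higher and 2 lower in controls and 1 higher and 3 lower in Kdm5b embryos, with the calls of Cdyl and Wiz lost in each.

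**Figure D3:**
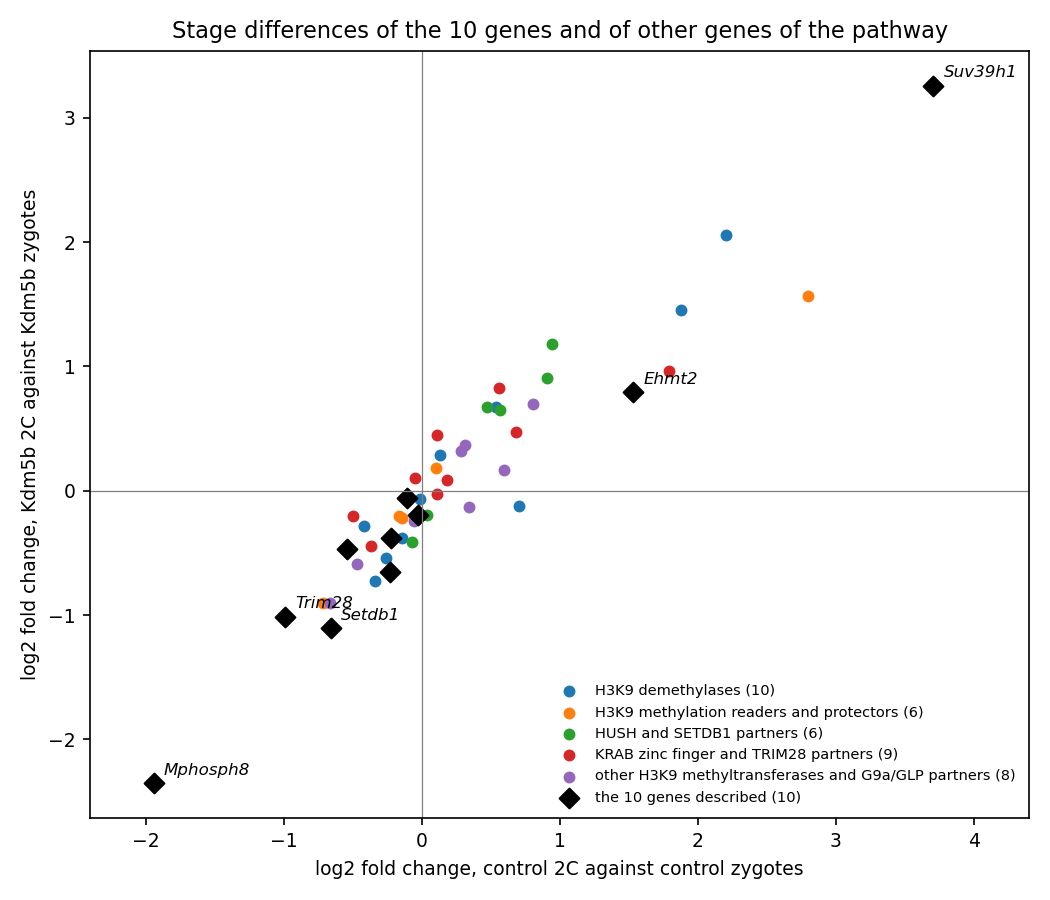
Log2 fold change between 2C samples and zygotes in control embryos (x axis) and Kdm5b embryos (y axis), for the 10 genes described (black diamonds) and 39 other genes of the pathway tested in both (circles, coloured by list). Suv39h1 at 3.71 and 3.26 and Mphosph8 at -1.94 and -2.35 are the extremes of the plot, and the green HUSH and SETDB1 partners called lie in the upper right.

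Repeats that these repressors are known to silence were examined in the table of estimated counts, in which 11 of 16 listed names were found. The 5 LINE-1 names of the list were not among the names of the table, which holds LINE-1 under other names, and LINE-1 was not used here. Between the control groups 10 of the 11 were tested, and 8 were higher and 0 lower, beside 25.6% of 2635 repeats called, 12.6% higher and 12.9% lower. MERVL-int, the body of a retrovirus expressed at the 2C stage, had 259.2 to 12792 CPM (the share of a sample's repeat counts, scaled to the same fixed total; median 2616) in control zygotes and 39629 to 191871 (median 84793) in control 2C samples. The groups did not overlap (log2 fold change 5.02, SE 0.53, adjusted p = 1.30e-07). Its long terminal repeat MT2_Mm had a log2 fold change of 3.33 (SE 0.27), and the major satellite GSAT_MM, the pericentromeric repeat at which SUV39H enzymes act, of 3.87 (SE 0.49, adjusted p = 1.61e-06). GSAT_MM ranged from 21.5 to 177.5 CPM in control zygotes and from 250.9 to 3442 CPM in control 2C samples.

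The retroviruses of the ERVK class silenced through TRIM28 and SETDB1 moved less, and their calls depended on the scaling. IAPLTR1_Mm, ETnERV-int, IAPEz-int, MMERVK10C-int and MMETn-int had log2 fold changes of 1.12, 0.88, 0.87, 0.67 and 0.58 in control embryos after TMM scaling. When each sample was scaled by its repeat total alone, they were 0.62, 0.40, 0.37, 0.18 and 0.09, IAPLTR2_Mm went from 0.38 to -0.11, and of the ERVK names only IAPLTR1_Mm was still called (adjusted p = 0.0315). With factors from the gene counts they were 1.36, 1.14, 1.14, 0.95 and 0.84, and IAPLTR2_Mm was at 0.65, all of them called. IAPLTR1a_Mm was not called under any of the 3 scalings. The median of all repeats tested was 0.06 after TMM scaling, -0.42 with repeat totals and 0.33 with factors from the gene counts, and called repeats split into 333 higher and 341 lower, 80 and 981, and 793 and 194. MERVL-int, MT2_Mm and GSAT_MM were called higher under each of these scalings in control and in Kdm5b embryos. In Kdm5b embryos 9 of 10 were higher after TMM scaling, beside 41% of 2740 repeats called, 20.1% higher and 20.9% lower. With repeat totals 5 were higher, beside 158 higher and 925 lower of 2740 repeats. GSAT_MM ranged from 30.5 to 102.6 CPM in Kdm5b zygotes and from 64.4 to 2119 CPM in Kdm5b 2C samples, which overlapped.

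To ask whether early loss of H3K4 methylation reaches these repressors, Kdm5b embryos were compared with controls of the same stage. In zygotes 0 of the 9 genes tested were called, beside 0.134% of 11933 genes. At an unadjusted p under 0.05 there was 1, Mphosph8, against 10.3% of all genes tested. The Wald test of DESeq2 also called 0, beside 102 of 11933 genes. Mphosph8 had 415.9 to 622.5 TPM (median 503.3) in control and 393.6 to 524.8 TPM (median 443.5) in Kdm5b zygotes, and 4 of 10 Kdm5b zygotes lay below the lowest control. Its log2 fold change was -0.16 (SE 0.06, unadjusted p = 0.0166, adjusted p = 0.362). The 95% confidence intervals of Mphosph8 and the 7 others apart from Ehmt2 lay between -0.30 and 0.22 on the log2 scale, and that of Ehmt2, with few fragments, ran from -0.63 to 1.14. Suv39h1 did not pass the filter on low counts in zygotes. Without the filter its log2 fold change was -0.22 (95% confidence interval -1.37 to 0.93, adjusted p = 0.929).

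In 2C samples 0 of the 10 genes were called, beside 0.0245% of 12244 genes tested. At an unadjusted p under 0.05 there was 1, Cbx5, against 9.41% of all genes tested. DESeq2 called 0, beside 105 of 12244 genes. Of the 10 estimates 8 were below 0, with a median of -0.28 beside -0.003 over all genes. Cbx5 had 20.2 to 33.5 TPM (median 25.5) in control and 18.7 to 25.7 TPM (median 19.4) in Kdm5b 2C samples, and 4 of 6 Kdm5b samples lay below the lowest control. Its log2 fold change was -0.34 (SE 0.13, unadjusted p = 0.0186, adjusted p = 0.416). Setdb1 had a log2 fold change of -0.41 (95% confidence interval -0.84 to 0.02, adjusted p = 0.566) and Mphosph8 of -0.55 (-1.15 to 0.04, adjusted p = 0.569). Intervals were widest for Ehmt2 (-1.98 to 1.03) and Suv39h1 (-1.73 to 0.45), and narrowest for Suv39h2 (-0.14 to 0.34). A level lowered 2-fold lay within the intervals of Ehmt2, Suv39h1 and Mphosph8.

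The 2C samples also fell into 2 strips of 8 consecutive library index numbers, which the sources do not describe as batches. Strip 11 held 3 control and 5 Kdm5b samples, and strip 12 held 6, among them the 3 control pools, and 1. Mphosph8 had 162.2, 189.5 and 260.7 TPM in the 3 controls of strip 11 and 64.4 to 108.9 TPM (median 82.4) in the 6 controls of strip 12. The 5 Kdm5b samples of strip 11 had 57.2 to 125.1 TPM (median 89.3), all below the controls of that strip, and the Kdm5b sample of strip 12 had 44.7 TPM, below all controls of its strip. With the strip as a covariate the log2 fold change of Mphosph8 was -1.06 (SE 0.19, adjusted p = 0.00723). Within strip 11 it was -1.15 (SE 0.23, adjusted p = 0.0323). Calls over all genes also rose in these fits, from 3 as reported to 253 of 12244 with the covariate (68 higher and 185 lower). They were 111 of 12426 within strip 11 (10 higher and 101 lower). Strip 12 alone allows no test, with 1 Kdm5b sample. Setdb1 had a log2 fold change of -0.74 (SE 0.20, adjusted p = 0.0549) with the covariate and -0.66 (SE 0.20, adjusted p = 0.137) within strip 11. The summed level of 2-cell embryo markers had a median of 613.0 TPM in the controls and 327.4 TPM in the Kdm5b samples of strip 11, and ranged from 279.6 to 1072 TPM in the controls of strip 12. That of the oocyte and zygote markers had medians of 2184, 2490 and 2592 TPM in the same order. The part of embryo progress in the Mphosph8 values was not tested.

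**Figure D4:**
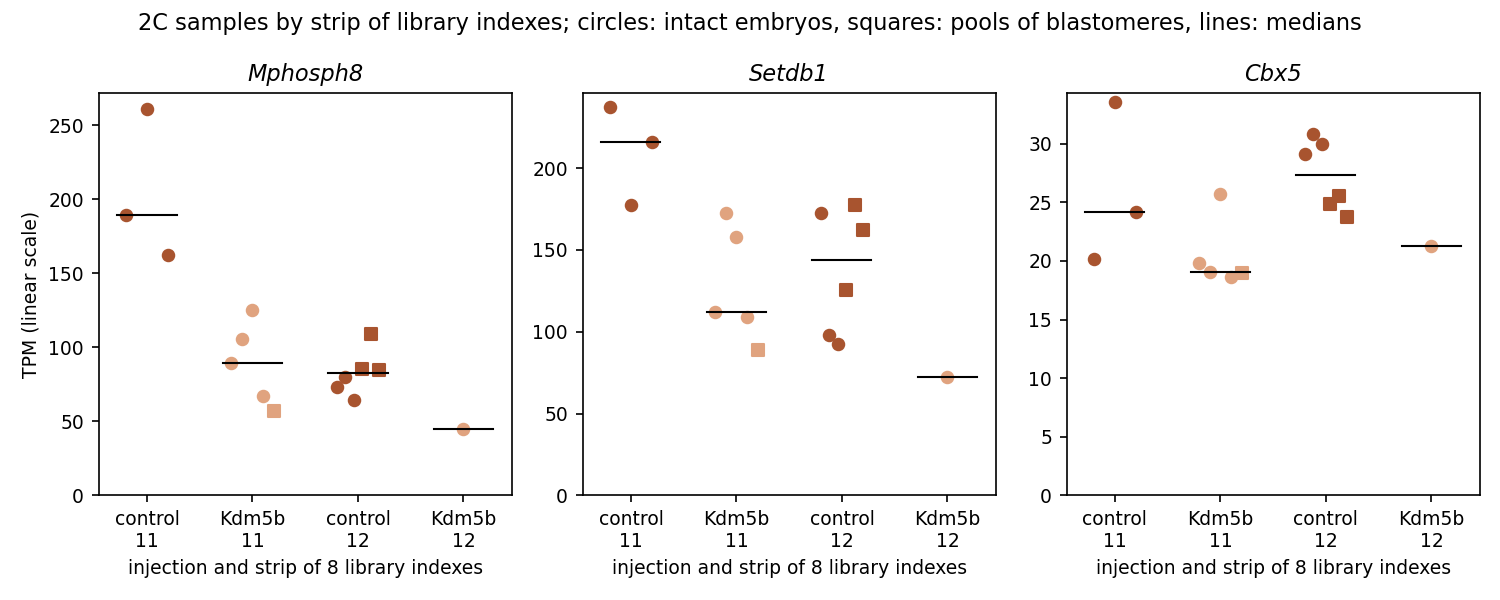
Level in TPM, on a linear scale, of Mphosph8, Setdb1 and Cbx5 in the 2C samples by injection and strip of library indexes (circles for intact embryos, squares for pools, lines for medians). In strip 11 the 3 controls lie above all 5 Kdm5b samples for Mphosph8, and the controls of strip 12 lie at 64.4 to 108.9 TPM.

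The interaction of stage and injection over all 35 samples called 0 of the 10 genes, beside 0.109% of 13778 genes tested. At an unadjusted p under 0.05 there were 2, Cbx5 and Setdb1, against 9.1% of all genes tested. DESeq2 called 0, beside 87 of 13778 genes. The stage difference of Cbx5 was lower by 0.41 on the log2 scale in Kdm5b than in control embryos (SE 0.14, unadjusted p = 0.00650, adjusted p = 0.293), and that of Setdb1 by 0.43 (SE 0.20, unadjusted p = 0.0398, adjusted p = 0.508). Calls of Cbx5 and Atf7ip in Kdm5b embryos alone are therefore not shown to differ from control embryos. Of the 40 other genes of the pathway, 0 were called between injections, with 39 tested in zygotes (7 at an unadjusted p under 0.05, beside 10.3% of all genes) and 38 in 2C samples (8, beside 9.41%). DESeq2 called 0 of them at either stage, beside 102 of 11933 genes in zygotes and 105 of 12244 in 2C samples. Of the listed repeats 0 were called by edgeR or DESeq2 in zygotes or in 2C samples, beside 0% of all repeats tested by edgeR. DESeq2 called 2 of 2616 repeats in zygotes and 4 of 2692 in 2C samples. Without the filter on low counts 2 were called lower at each stage. Over all repeats the calls were then 30 of 8669 in zygotes (14 higher and 16 lower). In 2C samples they were 41 of 7307 (7 higher and 34 lower). With the index strip in the fit, calls in 2C samples rose to 59 of 2692 repeats, 0 of them among those listed. At an unadjusted p under 0.05 there were 0 in zygotes, beside 5.35% of all repeats, and 3 in 2C samples, beside 6.61%. These 3 were MERVL-int, MT2_Mm and IAPEz-int, with log2 fold changes of -0.94, -0.72 and -0.34 (adjusted p = 0.740, 0.741 and 0.745).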

How the data were processed

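Total RNA of single or pooled embryos was sequenced with a stranded kit. The authors trimmed reads with fastp 0.21.0, aligned them with STAR 2.7.3a to GRCm38 and counted fragments on RefSeq genes with featureCounts 1.5.1, with strand. The deposited gene table holds these raw counts for 24480 genes. The authors' second table holds estimated counts of 18536 repeats from SalmonTE, of which 5.04% of values were not whole and were rounded here. No column (0) belonged to no known sample. The Kdm5b row was removed, since the injected mRNA falls on it.

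Each test used only the samples of the groups it compares and ran in edgeR 4.0.16 under R 4.3.3 (TMM, filterByExpr with a minimum count of 10, quasi-likelihood test, Benjamini-Hochberg adjustment over all genes, calls at 0.05), and checked on simulated data. SE is the log2 fold change over the root of F. TPM used the exon lengths of the table, without Kdm5b. Promoters came from RefSeq (GRCm38.p6), in which all 10 genes matched. Alternatives were DESeq2 1.42.0 (Wald test or size factors), other filters and scalings, the replicate number as a block, index strips, all samples in 1 fit, intact embryos only and leaving out each sample.

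The 10 genes, the lists and the tests were chosen with earlier results of these data known. Other genes of the pathway were named by the 3 smallest p in each direction among those called, per comparison. Others named were chosen after their values were seen (the repeats singled out, Tasor, Morc2a, Kdm7a, Kdm4c, Kdm4b, Jmjd1c, Cbx3, Cdyl, Wiz, Phf2, Prdm2). The labels do not say whether samples of a group came from separate females, so p-values measure only the spread between samples. Totals of 8705584 to 17797581 fragments set the precision, and limits from a count of 0 cover counting error only.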

Additional observations from a re-analysis of the deposited data

Results flagged for a closer look

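In 40 groups of values (10 genes in 4 groups), 5 samples stood apart from the rest of their group by the gap to their nearest neighbour, and chance alone would flag about 1 in 20 groups. Suv39h1 was at 28.9 TPM in control 2C replicate 6, with the next at 12.2 TPM and a group median of 5.22 TPM. Among Kdm5b zygotes, replicate 8 had the highest Ehmt2 at 2.42 TPM (median 1.08 TPM) and the highest Atf7ip at 514.7 TPM (median 412.0 TPM), and replicate 5 the lowest Pphln1 at 67.01 TPM (median 79.5 TPM). Cbx5 was at 25.7 TPM in Kdm5b 2C replicate 3, with a group median of 19.4 TPM.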

How the results depend on the processing

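Over 434 values of single genes under the alternatives, 418 kept their side of the threshold, 16 calls were gained, 0 were lost and 0 called values reversed. Among these, estimates not called changed sign 7 times, 4 of Trim28 and 3 of Ehmt1, the largest being Trim28 between injections in 2C samples (-0.03 as reported, 0.15 with the index strip in the fit and 0.48 within strip 11). In 691 further values from fits that left out 1 sample, 19 estimates not called changed sign, of Trim28, Ehmt1 and Setdb1. Between the control groups the 5 calls became 8 with library totals in place of TMM (1 higher and 7 lower, an alternative chosen after seeing the data), 8 with all 35 samples in a single fit (2 higher and 6 lower) and 2 past an absolute log2 fold change of 1. Over all genes, 6180 of 11968 were called with library totals (2748 higher and 3432 lower). In the single fit 7155 of 13778 were called (3705 higher and 3450 lower). With library totals the median of all genes moved to -0.07 in control and -0.12 in Kdm5b embryos. Gains there in control embryos were Suv39h2 (adjusted p = 0.0470), Atf7ip and Cbx5, and Ehmt2 was gained by DESeq2 (adjusted p = 0.0289) and in intact embryos (adjusted p = 0.0461). In Kdm5b embryos Ehmt1 (log2 fold change -0.33, adjusted p = 0.0114) and Suv39h2 (-0.19, adjusted p = 0.0248) were gained with library totals. Over all genes 7246 of 12390 were called there (3062 higher and 4184 lower). Between the Kdm5b groups 4 of the 7 were past an absolute log2 fold change of 1. Between injections in 2C samples 1 gene, Mphosph8, was called lower when the fit held the index strip and 1 within strip 11. Calls over all genes were 253 and 111 in these fits. Leaving out each sample gave 0 to 0 calls between injections at either stage, 5 to 7 between the control groups and 7 to 8 between the Kdm5b groups. The gains were Ehmt2 (without control zygote 9 or control 2C 3, 8 or 9, and without Kdm5b zygote 8), Atf7ip (without control zygote 3 or 9 or control 2C 1, 2, 3 or 8) and Cbx5 (without control 2C 2). Of the listed repeats, 2 were called lower without the filter on low counts between injections in zygotes and 2 in 2C samples. Over all repeats the calls were 30 and 41 there. With repeat totals 4 were called between the control groups and 5 between the Kdm5b groups, beside 1061 of 2635 and 1083 of 2740 repeats. As reported, 4 and 4 of the calls between stages were past an absolute log2 fold change of 1. The cause of these shifts was not tested.

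Replicate numbers did not pair the samples: correlations of same-numbered deviations were at most 0.10 in each comparison, and 0 of the pairs were above 0.1. With the replicate block, calls among the 10 genes were 0 in zygotes, 0 in 2C samples, 5 between the control groups, 7 between the Kdm5b groups and 0 for the interaction, and calls of repeats were 0, 0, 7 and 9. Over all genes the block moved the calls between injections from 16 to 19 in zygotes and from 3 to 19 in 2C samples. Between stages it gave 5595 of 11968 genes in control and 6196 of 12390 in Kdm5b embryos. Over all repeats the block gave 1, 0, 547 and 931 calls in the 4 comparisons. By their own number, 2, 0, 0 and 1 samples correlated best in the 4 comparisons. Over all genes tested, other settings gave 0 to 102 calls between injections in zygotes (16 as reported), 0 to 528 in 2C samples (3 as reported, the 528 with all samples in a single fit) and 18 to 87 for the interaction (15 as reported). Other genes of the pathway called after TMM scaling kept their sign with library totals and with DESeq2 size factors, and 3 of 22 control calls (Cdyl, Tasor and Wiz) and 3 of 24 Kdm5b calls (Cdyl, Phf2 and Wiz) were lost with library totals, and Prdm2 in Kdm5b embryos with DESeq2 size factors. Depth limits Suv39h1 and Ehmt2, with at most 31 and 37 fragments in any zygote.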
